A study of Oncorhynchus mykiss with 9 samples.

Results

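The phospholipase A2 genes of a cold-water salmonid, the rainbow trout (Oncorhynchus mykiss), were followed in liver by RNA sequencing under oxygen shortage. Members were all genes whose symbol in the deposited table begins with pla2g and a number, whatever the case of the letters, which gave 30 of 42127 genes. Among them pla2g3 (ncbi_110536804) was selected on its low level in acute hypoxia in these same libraries, so its own values are given as a description with no test. The libraries were 3 of acute hypoxia, 3 of moderate hypoxia and 3 of untreated control fish, all of liver tissue and all labelled wild-type. The design text names 12 h of hypoxia, which may belong to the acute treatment alone or to both, and the labels state neither oxygen levels nor the age of the fish. Fish returned to normal oxygen are also part of the design and were not analysed here. Whether libraries of 1 group stand for different fish is not stated in the labels, so p-values measure only the spread between these libraries, which may be technical.

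Phospholipase A2 enzymes cut the fatty acid at the sn-2 position of a membrane phospholipid, releasing a free fatty acid and a lysophospholipid. Where the fatty acid is arachidonic acid, cyclooxygenases and lipoxygenases can turn it into prostaglandins and leukotrienes, while acyltransferases can put a new fatty acid back on the lysophospholipid (the Lands cycle). The family holds secreted enzymes (groups 1, 3, 10 and 12), calcium-dependent cytosolic enzymes (group 4), calcium-independent enzymes (group 6), the platelet-activating factor acetylhydrolases (group 7) and the lysosomal enzyme (group 15). The group 12 protein PLA2G12B lacks catalytic activity and takes part in lipoprotein secretion in mouse and zebrafish.

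Levels are FPKM, fragments per kilobase of transcript scaled to the mapped fragments of the library, so they are scaled for length and for library size. A level is thus a share of its library, and differences between libraries depended on the scaling, as given below. Read totals were not available from these values, and the spacing of low values put the depth of the libraries at 0.947 to 1.29 times that of control library 1. Between 29598 and 30611 genes were listed above 0 in a library. All 18 matched hepatocyte marker genes were detected, and their summed level was 29671 to 31901 FPKM in acute hypoxia, 31169 to 32653 FPKM in moderate hypoxia and 31200 to 34196 FPKM in control. Summed granulocyte markers (19 genes, 98.5% of the sum from lect2) came to 712 to 1425 FPKM in acute hypoxia, 846 to 1643 FPKM in moderate hypoxia and 1678 to 2278 FPKM in control, and without lect2 to 16.6 to 22.6, 14 to 43 and 13.2 to 22.4 FPKM in the same groups. Lymphocyte markers (12 genes, 81.1% of the sum from Cd74) summed to 118 to 144, 145 to 180 and 153 to 208 FPKM in acute hypoxia, moderate hypoxia and control. Without Cd74 the sums were 22.8 to 28.9, 24.2 to 31.2 and 30.2 to 41.6 FPKM in the same groups. Endothelial markers (17) summed to 18.7 to 19.5, 22.4 to 26.4 and 18.5 to 19 FPKM in these groups. Stellate cell and fibroblast markers (27) summed to 96.9 to 145, 117 to 152 and 83.3 to 103 FPKM in the same order. Both hypoxia groups thus stood below control in lect2, which alone is no measure of granulocytes. They overlapped control in the sum of the other granulocyte markers. Acute hypoxia lay below control in the lymphocyte sum, with or without Cd74. Moderate hypoxia lay above control in the endothelial and the stellate cell sums. Red cell markers (34 genes, 13 listed at 0 in every library) at 412 to 680, 414 to 677 and 581 to 678 FPKM, and bile duct markers (38 genes, 7 at 0) at 255 to 281, 246 to 281 and 217 to 284 FPKM, overlapped between the groups. krt18 gave 41.7% of the bile duct sum. Without krt18 the bile duct sums, at 151 to 164, 136 to 166 and 131 to 167 FPKM in the same order, overlapped as well. The part of these cell types in the results was not tested. No sequencing batch is given in the labels.

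Of the 30 genes, 13 reached a 9-library mean of 1 FPKM and entered the test, which leaves 12 beside pla2g3. All 6 genes of group 12 and both of group 15 passed this filter, as did 2 of 3 in group 7, 2 of 4 in group 10 and 1 of 3 in group 3, which is pla2g3. None of the 3 genes of group 1, the 7 of group 4 or the 2 of group 6 passed. The lowest mean among the genes that passed was 1.22 FPKM, of the group 10 gene PLA2G10 (ncbi_110515973), and the highest among those that did not was 0.552 FPKM, of the cytosolic gene pla2g4ab (ncbi_110524777). Product names of 2 members do not name a phospholipase, namely PLA2G3 (ncbi_110503907), listed as mucin-5AC, and PLA2G12B (ncbi_110499564), listed as uncharacterized.

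pla2g3 encodes a secreted phospholipase A2 related to the enzyme of bee venom. It stood at 0.245, 0.134 and 0.434 FPKM in the acute hypoxia libraries, at 7.23, 9.56 and 5.29 FPKM in the moderate hypoxia libraries and at 14.9, 18.6 and 11.8 FPKM in the control libraries. The 3 groups did not overlap, with acute hypoxia lowest, moderate hypoxia between and control highest. Group means were 0.271 ± 0.152 FPKM in acute hypoxia, 7.36 ± 2.14 FPKM in moderate hypoxia and 15.1 ± 3.37 FPKM in control (SD, n = 3 each). The acute mean was thus 0.0179 of the control mean, and the moderate mean 0.487 of it. On the log2(FPKM + 0.5) scale the difference was -4.34 for acute hypoxia against control, -1.0 for moderate hypoxia against control and -3.33 for acute against moderate hypoxia (SE 0.22 each). The size on the log scale depends on the added constant because the acute values are low: with 0.1 in place of 0.5 the acute difference from control was -5.41, and with 1 it was -3.65. The authors' deposited table gives log2 ratios of -5.80 for acute hypoxia against control, -1.04 for moderate hypoxia against control and -4.76 for acute against moderate hypoxia. In whole liver, fewer cells of a type and less RNA per cell cannot be told apart, here or for any gene below.

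**Figure D1:**
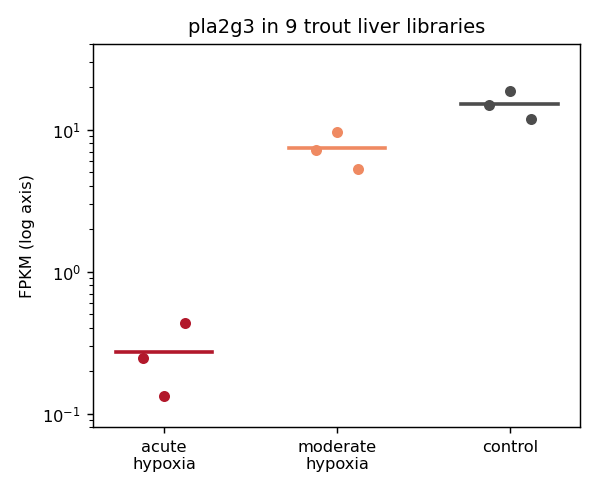
Level of pla2g3 (FPKM, logarithmic axis) in each of the 9 liver libraries, by group; points are libraries and bars are group means. The acute hypoxia libraries lie at 0.134 to 0.434 FPKM, below every moderate hypoxia library (5.29 to 9.56 FPKM), and these lie below every control library (11.8 to 18.6 FPKM).

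The other group 3 genes gave almost no signal. PLA2G3 (ncbi_110525684) was above 0 in 2 of the 9 libraries, at 0.035 FPKM in an acute hypoxia library and 0.016 FPKM in a control library, and PLA2G3 (ncbi_110503907) was listed at 0 in all. In the RefSeq gene order of this species (assembly USDA_OmykA_1.1), pla2g3 has on one side a pseudogene (LOC110536803, not analysed here) and then ptpn11a (ncbi_110536802), a tyrosine phosphatase gene, and on the other TTC28 (ncbi_110537090) and then PITPNB (ncbi_110537092). ptpn11a stood at 1.34, 1.76 and 1.85 FPKM in acute hypoxia, 1.8, 1.76 and 2.15 FPKM in moderate hypoxia and 1.35, 1.91 and 1.25 FPKM in control, with overlapping groups (acute against control 0.11 ± 0.15 (SE), limma adjusted p = 0.722). TTC28 and PITPNB, a phosphatidylinositol transfer protein gene, were below the filter and were not tested. PITPNB was at 0.465, 0.492 and 0.445 FPKM in acute hypoxia, 0.988, 0.684 and 0.711 FPKM in moderate hypoxia and 0.735, 0.978 and 0.684 FPKM in control, so its acute libraries were below all others. TTC28 was at 0.067, 0.066 and 0.062 FPKM in acute hypoxia, 0.125, 0.199 and 0.172 FPKM in moderate hypoxia and 0.085, 0.067 and 0.063 FPKM in control, with the moderate libraries above all others.

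Summed over the 30 genes, phospholipase A2 transcripts made up 131 ± 11.8 FPKM in acute hypoxia, 164 ± 7.84 FPKM in moderate hypoxia and 170 ± 9.88 FPKM in control (SD, n = 3 each). Without pla2g3 the sums were 131 ± 11.6 FPKM in acute hypoxia, 156 ± 7.92 FPKM in moderate hypoxia and 155 ± 6.61 FPKM in control. pla2g3 supplied 0.113% to 0.307% of the sum in acute hypoxia libraries, 3.15% to 5.68% in moderate hypoxia libraries and 7.32% to 10.3% in control libraries. More than any other members, 2 PLA2G12B genes set the total, with 54.5% to 61.8% of it in every library. These sums are descriptions, since pla2g3 was chosen for its change.

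For the tests, log2(FPKM + 0.5) of 13803 genes was fitted with limma across the 3 groups together, and a gene was called at a Benjamini-Hochberg adjusted p under 0.05 over all those genes. The median log2 difference over all tested genes was -0.05 for acute hypoxia against control, 0.15 for moderate hypoxia against control and -0.21 for acute against moderate hypoxia. Changes in the comparisons with a median shift above 0.1 in size are therefore given relative to that median, and calls are given also after median-of-ratios scaling, which sets the libraries to a common centre. Beside a relative change stands the adjusted p that limma gave for the unshifted change.

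In acute hypoxia against control, 3 of the 12 tested members other than pla2g3 were called, 1 higher (Pla2g15) and 2 lower (pla2g12a and pla2g7). Over all tested genes 7.79% were called, 3.08% higher and 4.71% lower. The median log2 difference of the 12 was -0.23, and 9 of them lay below 0. In 6 of the 12 the acute and control libraries did not overlap, against 28.3% of all tested genes. After median-of-ratios scaling the split was again 1 higher and 2 lower, where 4.23% of all genes were called higher and 3.83% lower.

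pla2g12a (ncbi_100305191) encodes the group 12 enzyme that is secreted and weakly active in mammals. Its level was 5.29, 6.86 and 8.2 FPKM in acute hypoxia, 8.41, 8.82 and 9.11 FPKM in moderate hypoxia and 10.2, 10.5 and 11.9 FPKM in control. The 3 groups followed each other without overlap, in the same order as for pla2g3 but over a far narrower range. It fell by 0.66 ± 0.14 (SE) on the log2 scale in acute hypoxia against control (limma adjusted p = 0.0164), a mean 0.625 of the control mean. The call was kept in 13 of 14 alternatives and missed without control library 3 (adjusted p = 0.0562). In moderate hypoxia the gene lay 0.44 below the median change (relative log2 difference -0.44 ± 0.14, adjusted p = 0.145), and this passed the test only after median-of-ratios scaling (-0.52, adjusted p = 0.0329). Its partner of the same symbol, PLA2G12A (MSTRG.20594), was at 7.54, 6.11 and 7.27 FPKM in acute hypoxia, 8.99, 7.98 and 9.81 FPKM in moderate hypoxia and 8.27, 8.42 and 7.93 FPKM in control. The acute libraries were below all control libraries, with a log2 difference of -0.23 that did not pass (95% interval -0.47 to 0.02, adjusted p = 0.257).

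Pla2g15 (ncbi_110512398) encodes the lysosomal phospholipase A2, which degrades phospholipids at acid pH. It stood at 9.73, 10.4 and 8.97 FPKM in acute hypoxia, 8.24, 7.67 and 9.68 FPKM in moderate hypoxia and 6.79, 6.4 and 6.99 FPKM in control. Every hypoxia library, acute or moderate, was above every control library. The gene rose by 0.50 ± 0.11 (SE) in acute hypoxia against control (adjusted p = 0.0188), a mean 1.44 times that of control. That call ended without control library 1 (adjusted p = 0.071), control library 2 (0.0654), acute library 1 (0.0542) or acute library 2 (0.0754). In moderate hypoxia against control the relative log2 change was 0.16 ± 0.11 (adjusted p = 0.0493), a call that median-of-ratios scaling ended (adjusted p = 0.59) and that was kept in 4 of 13 alternatives.

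The other group 15 gene, pla2g15 (ncbi_110493961), was at 10.3, 10.7 and 9.54 FPKM in acute hypoxia, 8.91, 11 and 9.28 FPKM in moderate hypoxia and 11.5, 11.8 and 10.4 FPKM in control. Its acute and control libraries overlapped (log2 difference -0.13, 95% interval -0.37 to 0.10, adjusted p = 0.498). The log2 ratio of pla2g15 to Pla2g15 averaged 0.07 ± 0.03 in acute hypoxia, 0.18 ± 0.28 in moderate hypoxia and 0.70 ± 0.15 in control (SD, n = 3 each). The ratio was thus lower by 0.63 in acute hypoxia and by 0.51 in moderate hypoxia than in control, without overlap in either case. Exact permutation tests (two-sided) gave p = 0.1 for both, the smallest that 3 against 3 libraries allow, and 0.214 after adjustment over the 15 tests made on 5 gene pairs.

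pla2g7 (ncbi_110522503) encodes the platelet-activating factor acetylhydrolase, an enzyme of blood lipoproteins made mainly by macrophages in mammals. Its level was 3.93, 3.9 and 3.9 FPKM in acute hypoxia, 3.94, 3.91 and 4.08 FPKM in moderate hypoxia and 5.32, 5.73 and 4.87 FPKM in control. All 6 hypoxia libraries lay close together and below every control library. The gene fell by 0.39 ± 0.09 (SE) in acute hypoxia against control (adjusted p = 0.0285), and its relative change in moderate hypoxia against control was -0.53 ± 0.09 (adjusted p = 0.0137). The acute call was kept in 6 of 13 alternatives, being lost with 5 of the 6 libraries left out in turn (all but control library 3), with a replicate block (adjusted p = 0.0671) and with the acute and control groups alone (0.0511). The moderate call was kept in 11 of 12 and ended without control library 1 (adjusted p = 0.0517). Summed macrophage markers, 27 genes of which 3 (2 of the CD163 genes and a Mrc1 gene) were listed at 0 in every library, came to 59.9 to 71.9 FPKM in acute hypoxia, 67.3 to 73.5 FPKM in moderate hypoxia and 70.4 to 82.8 FPKM in control. LGMN gave 23.5% of the sum, at 17.9 to 19.8 FPKM in acute hypoxia, 14.5 to 16.3 FPKM in moderate hypoxia and 14.3 to 15.7 FPKM in control. Without it the sum was 40.5 to 52.1 FPKM in acute hypoxia, 51 to 59 FPKM in moderate hypoxia and 55.5 to 68.5 FPKM in control, so the acute libraries were below all control libraries. Of the 10 markers tested, 1 was called higher and 2 lower in acute hypoxia against control, where 3.08% of all genes were higher and 4.71% lower. In moderate hypoxia against control 0 were higher and 1 lower, where 24.3% and 5.02% of all genes were. The part of these markers in the pla2g7 result was not tested.

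The related gene PLA2G7 (ncbi_110529826) was at 3.39, 3.13 and 2.85 FPKM in acute hypoxia, 3.15, 2.65 and 4.09 FPKM in moderate hypoxia and 2.99, 3.27 and 2.8 FPKM in control, with all 3 groups overlapping. Its log2 difference in acute hypoxia against control was 0.04 (95% interval -0.27 to 0.35, adjusted p = 0.897). The log2 ratio of pla2g7 to PLA2G7 averaged 0.29 ± 0.10 in acute hypoxia, 0.26 ± 0.25 in moderate hypoxia and 0.72 ± 0.02 in control (SD, n = 3 each). Both hypoxia groups lay below control without overlap (exact permutation p = 0.1 each, adjusted p = 0.214). For pla2g12a and PLA2G12A the log2 ratio averaged -0.05 ± 0.37 in acute hypoxia, -0.02 ± 0.13 in moderate hypoxia and 0.38 ± 0.15 in control, with the same p-values from the same exact test. Pairs of close copies may share reads, so the split of a level between them is uncertain. The remaining group 7 gene, PLA2G7 (ncbi_118965509), was at most 0.055 FPKM and listed at 0 in all acute hypoxia libraries.

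The most abundant members were 2 PLA2G12B genes, whose product in mouse and zebrafish helps load lipoproteins. PLA2G12B (ncbi_110493650) was at 41.8, 36.6 and 49.2 FPKM in acute hypoxia, 49.4, 53.6 and 49.6 FPKM in moderate hypoxia and 48.6, 53.0 and 48.5 FPKM in control. PLA2G12B (ncbi_110485919) was at 35.7, 27.8 and 38.3 FPKM in acute hypoxia, 42.4, 49.9 and 51.3 FPKM in moderate hypoxia and 44.3, 47.2 and 41.0 FPKM in control. For ncbi_110485919 the acute libraries were below all others, whereas for ncbi_110493650 acute library 3 reached the control range. Neither passed the test against control in acute hypoxia, with log2 differences of -0.24 (95% interval -0.48 to 0.00, adjusted p = 0.225) for ncbi_110493650 and -0.39 (-0.67 to -0.10, adjusted p = 0.1) for ncbi_110485919.

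Of the less abundant group 12 genes, pla2g12b (ncbi_110491268) was at 5.42, 5.03 and 4.89 FPKM in acute hypoxia, 5.44, 4.5 and 5.5 FPKM in moderate hypoxia and 5.91, 6.15 and 6.08 FPKM in control. Every hypoxia library was below every control library, but the differences did not pass (acute against control -0.22, 95% interval -0.45 to 0.00, adjusted p = 0.227). PLA2G12B (ncbi_110499564), the uncharacterized product, was at 1.96, 1.76 and 1.03 FPKM in acute hypoxia, 2.35, 2.77 and 3.03 FPKM in moderate hypoxia and 2.16, 1.13 and 2.82 FPKM in control. Acute and moderate libraries of this gene did not overlap, while control overlapped both (acute against moderate, relative log2 difference -0.44 ± 0.25, adjusted p = 0.0656).

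Group 10 enzymes are secreted and act well on phosphatidylcholine in mammals. PLA2G10 (ncbi_118938417) was at 4.88, 2.39 and 4.5 FPKM in acute hypoxia, 3.2, 2.9 and 4.6 FPKM in moderate hypoxia and 2.65, 5.76 and 1.71 FPKM in control, and varied more among control libraries than between groups (acute against control 0.28, 95% interval -0.48 to 1.04, adjusted p = 0.682). PLA2G10 (ncbi_110515973) was at 1.0, 1.15 and 0.74 FPKM in acute hypoxia, 1.11, 1.13 and 0.315 FPKM in moderate hypoxia and 1.75, 1.07 and 2.67 FPKM in control. Control library 2 lay within the hypoxia range. Its mean was 0.966 FPKM in acute hypoxia, 0.849 FPKM in moderate hypoxia and 1.83 FPKM in control, so it passed the filter only through the control libraries. Its difference from control is therefore a description, although the counts over the 12 include it.

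**Figure D2:**
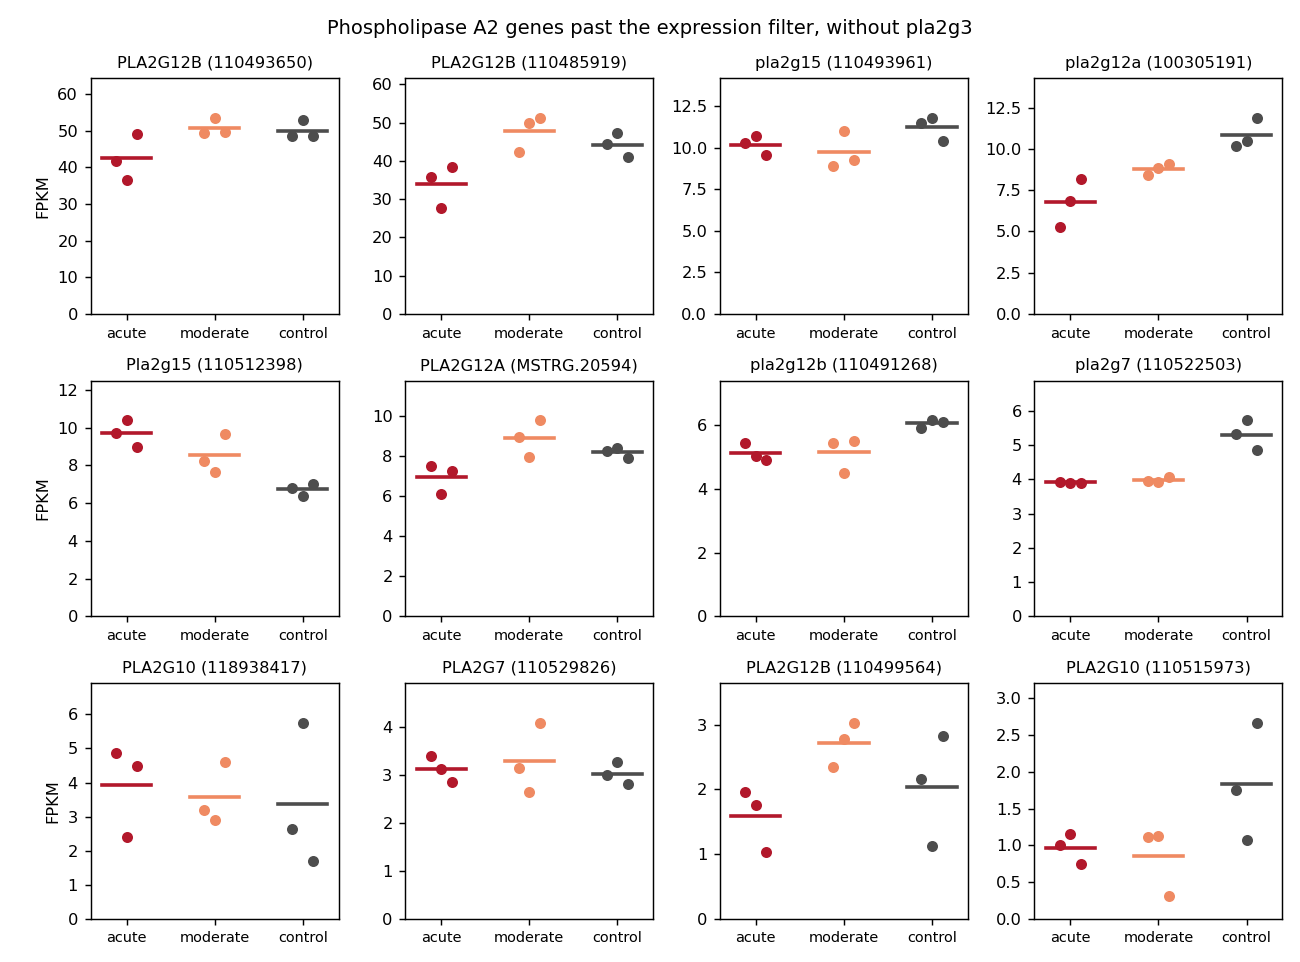
Level (FPKM, each axis from 0) of the 12 tested phospholipase A2 genes other than pla2g3, by group; points are libraries and bars are group means. The 2 PLA2G12B genes at the upper left reach about 50 FPKM, Pla2g15 is higher in every hypoxia library than in control, and pla2g7 and pla2g12b are lower in every hypoxia library than in control.

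In moderate hypoxia against control, 2 of the 12 were called, pla2g7 lower and Pla2g15 higher, where 29.3% of all tested genes were called (24.3% higher and 5.02% lower). The libraries of 4 members did not overlap, against 45% of all tested genes. Median-of-ratios scaling changed the split to 0 higher and 5 lower, where it called 11.3% of all genes higher and 15.3% lower. The 5 were pla2g7 (-0.59, adjusted p = 0.00168), pla2g12b (-0.44, 0.0065), pla2g15 (-0.43, 0.0221), pla2g12a (-0.52, 0.0329) and PLA2G10 (ncbi_110515973), and nothing is read from the last, which passed the filter only through control. The authors' deposited table has an FDR under 0.05 in this comparison for 4 of the 12, pla2g7 (0.00171), pla2g12a (0.0213), pla2g15 (0.0379) and pla2g12b (0.0482). In that table genes with a p of at least 0.9 had a median log2 ratio of 0.24 in this comparison, so its ratios and p-values do not share a centre.

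In acute against moderate hypoxia, 2 of the 12 were called, both lower, where 32.4% of all tested genes were called (4.3% higher and 28.1% lower). The called genes were PLA2G12B (ncbi_110485919), with a relative log2 change of -0.29 ± 0.13 (adjusted p = 0.0138), and PLA2G12A (MSTRG.20594), with -0.13 ± 0.11 (adjusted p = 0.0389), and 5 of the 12 had an unadjusted p under 0.05. Median-of-ratios scaling ended both calls (adjusted p = 0.334 and 0.767) and instead called 3 members higher and 0 lower, pla2g15 (0.35, adjusted p = 0.0489), Pla2g15 (0.47, 0.0122) and pla2g12b (0.27, 0.0498), where it called 14.7% of all genes higher and 9.77% lower. The call of ncbi_110485919 was kept in the other 12 of 13 alternatives. That of MSTRG.20594 was kept in 5 of 13, and was lost also with the replicate block (adjusted p = 0.052), without a filter (0.059), with the 2 groups alone (0.0698), and without moderate library 1 (0.0942), moderate library 3 (0.121), acute library 2 (0.136) or acute library 3 (0.0556). Which members were called in this comparison thus depended on the scaling. The 2 called at first stayed below 0 after it, at -0.20 for ncbi_110485919 and -0.05 for MSTRG.20594. The libraries of 5 members did not overlap, against 45.6% of all tested genes. The authors' deposited table has an FDR under 0.05 for Pla2g15 alone among the 12, both in acute against moderate hypoxia (0.0234) and in acute hypoxia against control (0.00324). In acute against moderate hypoxia its genes with a p of at least 0.9 had a median log2 ratio of -0.30. Ratios and p-values of that table thus do not share a centre in this comparison either. In acute hypoxia against control that median was -0.06.

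**Figure D3:**
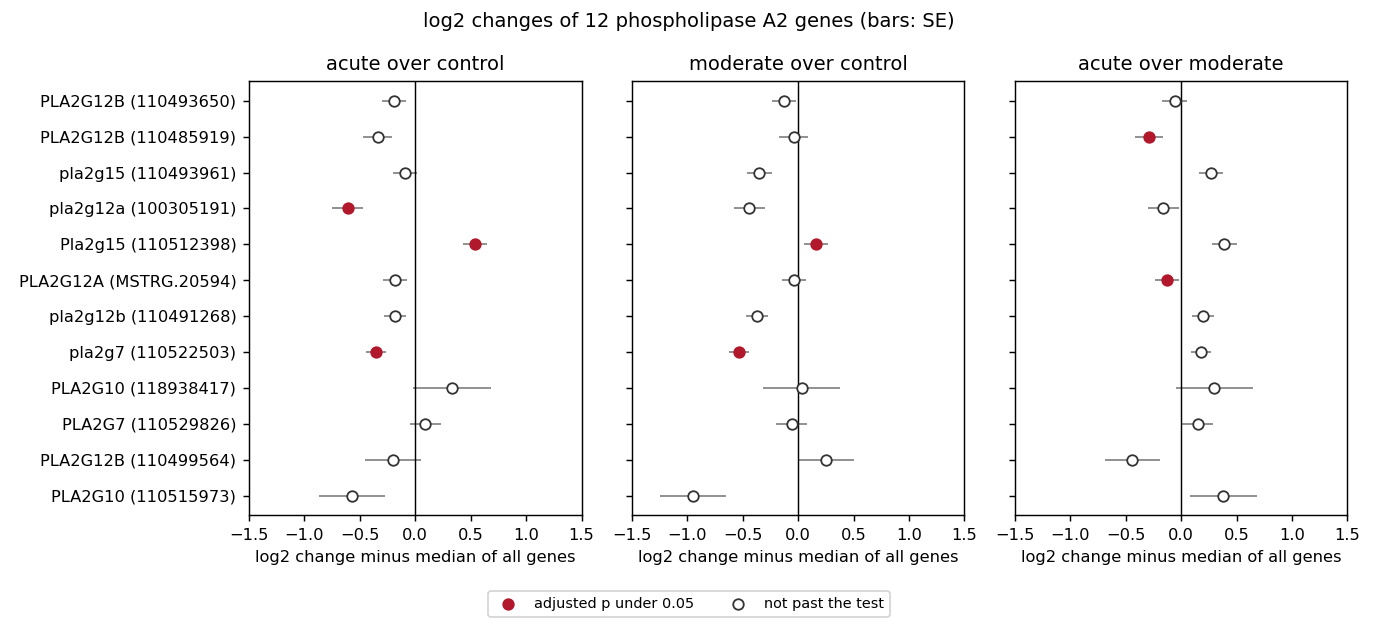
log2 change of the 12 tested phospholipase A2 genes other than pla2g3, minus the median change of all tested genes, in each comparison; bars are SE and filled points passed limma's test at an adjusted p under 0.05 on the unshifted change. In acute hypoxia against control pla2g12a and pla2g7 lie below and Pla2g15 above the median; in acute against moderate hypoxia the filled points lie 0.29 and 0.13 below it (-0.29 and -0.13).

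The 17 members below the filter included every gene of group 1 (pancreatic), group 4 (cytosolic) and group 6 (calcium-independent). Of these 17, 3 were listed at 0 in all 9 libraries, 10 were above 0 in some and 4 in all, and the highest value of any was 0.758 FPKM. That value belonged to pla2g4ab, a cytosolic enzyme of the kind that frees arachidonic acid, at 0.514, 0.445 and 0.538 FPKM in acute hypoxia, 0.544, 0.529 and 0.758 FPKM in moderate hypoxia and 0.559, 0.405 and 0.676 FPKM in control, with overlapping groups. PLA2G6 (ncbi_110515366), a calcium-independent enzyme, ranged from 0.337 to 0.541 FPKM in acute hypoxia, from 0.287 to 0.495 FPKM in moderate hypoxia and from 0.41 to 0.507 FPKM in control.

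PLA2G1B is the digestive enzyme of pancreatic juice, and exocrine pancreas can lie within the liver of some fishes. PLA2G1B (ncbi_110525547) was at 0.131, 0.064 and 0.056 FPKM in acute hypoxia, at 0.15 FPKM in moderate library 2 and listed at 0 in the other moderate and all control libraries. The other 2 group 1 genes were at most 0.653 FPKM and overlapped between groups. Exocrine pancreas markers summed to 23.5 to 80.7 FPKM in acute hypoxia, 9.57 to 98.6 FPKM in moderate hypoxia and 3.42 to 58.6 FPKM in control over 28 genes, of which 6 (CELA2A, CTRL, Cpa1, Prss2 and 2 ptf1a genes) were listed at 0 in every library. The median of the 11 tested markers was 0.85 higher in acute hypoxia than in control, none passing the test; their part in the PLA2G1B values was not tested.

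Genes of phospholipid and eicosanoid metabolism, of lipid receptors and of lipoprotein assembly were read from 8 lists, not all of them tied directly to these enzymes. The comparisons share libraries, so their counts are not independent of each other. The enzymes of eicosanoid synthesis had 24 tested genes, of which 1 rose and 2 fell in acute hypoxia against control, where 3.08% of all genes rose and 4.71% fell. Their median log2 difference was -0.12, against -0.05 for all genes. In moderate hypoxia against control 3 rose and 1 fell, where 24.3% of all genes rose and 5.02% fell. After median-of-ratios scaling 1 rose and 7 fell there, against 11.3% and 15.3% of all genes. Acute against moderate hypoxia gave 1 higher and 3 lower, where 4.3% of all genes were higher and 28.1% lower. That scaling changed the split to 8 higher and 0 lower, against 14.7% and 9.77% of all genes. Hpgd (ncbi_110497391), which inactivates prostaglandins, was at 29.3, 29.2 and 22.4 FPKM in acute hypoxia, 24.5, 29.1 and 29.5 FPKM in moderate hypoxia and 18.3, 16.2 and 16.9 FPKM in control. Every hypoxia library exceeded every control library, and the gene rose by 0.63 ± 0.12 (SE) in acute hypoxia (adjusted p = 0.0119, 0.0503 without acute library 2), with a relative change of 0.52 in moderate hypoxia (adjusted p = 0.00293). CYP2J2 (ncbi_110521776), an arachidonic acid epoxygenase in human, was at 44.8, 58.2 and 41.9 FPKM in acute hypoxia against 73.2, 67.4 and 71.3 FPKM in control and fell by 0.56 ± 0.12 (adjusted p = 0.0158, lost without control library 1 or acute library 1). Another CYP2J2 gene (ncbi_110538684) did not fall, with a log2 difference of 0.16 in acute hypoxia against control (limma adjusted p = 0.424). In moderate hypoxia against control its relative change was 0.22 (limma adjusted p = 0.0253, 0.368 after median-of-ratios scaling). PTGES3, a co-chaperone also named as a prostaglandin E synthase, was 0.56 lower in acute hypoxia against control (adjusted p = 0.0385), a call lost in 8 of 14 alternatives.

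Only 5 of 72 matched receptor genes for eicosanoids and lysophospholipids passed the filter. In acute hypoxia against control 2 of the 5 fell, where 4.71% of all genes fell. Both were s1pr2, a receptor for sphingosine 1-phosphate. s1pr2 (ncbi_110486371) was at 0.872, 0.921 and 0.8 FPKM in acute hypoxia, 2.02, 1.76 and 1.83 FPKM in moderate hypoxia and 1.56, 1.53 and 1.51 FPKM in control. The acute libraries were below all others (acute against control -0.58 ± 0.10 (SE), adjusted p = 0.00774; acute against moderate, relative -0.59, adjusted p = 0.000477). s1pr2 (ncbi_110538423) also fell by 0.58 against control (adjusted p = 0.0312), a call lost in 7 of 13 alternatives. None of the 5 passed limma's test in moderate hypoxia against control, and 0 did so at an unadjusted p under 0.05. Median-of-ratios scaling called 1 lower there, where it called 15.3% of all genes lower.

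Phospholipid remodelling, the refilling of lysophospholipids, had 30 tested genes. In acute hypoxia against control 1 rose and 1 fell, where 3.08% of all genes rose and 4.71% fell. Lpcat3 (ncbi_110517876), which puts polyunsaturated fatty acids back on lysophosphatidylcholine, was at 6.23, 6.43 and 5.94 FPKM in acute hypoxia, 6.49, 7.29 and 7.26 FPKM in moderate hypoxia and 12.6, 12.8 and 10.7 FPKM in control. Each hypoxia library was well below each control library. It fell by 0.90 ± 0.10 (SE) in acute hypoxia (adjusted p = 0.00045) and its relative change in moderate hypoxia was -0.89 ± 0.10 (adjusted p = 0.000703). GPCPD1 (ncbi_110522444), which splits glycerophosphocholine, was at 5.66, 5.82 and 5.03 FPKM in acute hypoxia, 5.63, 5.91 and 5.68 FPKM in moderate hypoxia and 3.63, 3.3 and 3.01 FPKM in control and rose by 0.66 ± 0.10 in acute hypoxia (adjusted p = 0.0034). Both genes kept their calls in all alternatives run.

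In moderate hypoxia against control 14 of the 30 remodelling genes were called higher and 1 lower, where 24.3% of all genes were called higher and 5.02% lower. After median-of-ratios scaling the split was 6 higher and 4 lower, against 11.3% and 15.3% of all genes. Pnpla6 (ncbi_110485795), a lysophospholipase, was at 2.38, 2.8 and 2.61 FPKM in acute hypoxia, 5.03, 3.98 and 4.84 FPKM in moderate hypoxia and 1.99, 1.8 and 1.86 FPKM in control. Moderate hypoxia stood above both other groups (relative change against control 0.94, adjusted p = 0.000159). LPCAT4 (ncbi_110500395), another acyltransferase, showed the same order, at 18.6, 13.7 and 18.0 FPKM in moderate hypoxia against 7.45, 8.31 and 8.07 FPKM in control (relative change 0.87, adjusted p = 0.000356). In acute against moderate hypoxia 0 were higher and 12 lower, where 4.3% of all genes were higher and 28.1% lower. After median-of-ratios scaling 5 were higher and 6 lower, against 14.7% and 9.77% of all genes.

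Genes for making phosphatidylcholine and phosphatidylethanolamine, the main substrates, numbered 27 tested, of which 0 rose and 6 fell in acute hypoxia against control, under either scaling. Over all genes 4.71% fell, and 3.83% after median-of-ratios scaling. PISD (ncbi_110523465), the mitochondrial enzyme that turns phosphatidylserine into phosphatidylethanolamine, was at 47.4, 45.6 and 81.7 FPKM in acute hypoxia, 208, 201 and 149 FPKM in moderate hypoxia and 162, 172 and 154 FPKM in control. It fell by 1.53 ± 0.20 (SE) (adjusted p = 0.00122), and moderate hypoxia overlapped control. PCYT1B (ncbi_110534067), which makes CDP-choline, was at 2.14, 1.21 and 1.47 FPKM in acute hypoxia, 6.97, 5.78 and 5.79 FPKM in moderate hypoxia and 5.66, 7.15 and 4.4 FPKM in control, and fell by 1.57 ± 0.19 (adjusted p = 0.000616). The choline kinase gene chkb (ncbi_110496542) fell by 0.93 ± 0.13 (adjusted p = 0.00139), at 1.81, 2.25 and 2.38 FPKM in acute hypoxia against 4.43, 4.76 and 4.4 FPKM in control. These 3 kept their calls in all alternatives run.

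In moderate hypoxia against control 6 of the 27 were called higher and 0 lower, where 24.3% of all genes were called higher and 5.02% lower. After median-of-ratios scaling 3 were higher and 1 lower, against 11.3% and 15.3% of all genes. Etnk1 (ncbi_110500182), an ethanolamine kinase, was at 2.2, 2.42 and 2.07 FPKM in acute hypoxia, 6.08, 4.26 and 4.6 FPKM in moderate hypoxia and 1.62, 1.7 and 1.81 FPKM in control (relative change 1.14, adjusted p = 0.000143). Its moderate libraries stood above all others. In acute against moderate hypoxia 0 were higher and 16 of 27 lower, where 4.3% of all genes were higher and 28.1% lower. After median-of-ratios scaling 3 were higher and 9 lower, against 14.7% and 9.77% of all genes.

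Lipoprotein assembly partners, grouped here because of PLA2G12B, had 27 tested genes with 3 higher and 4 lower in acute hypoxia against control, where 3.08% of all genes were higher and 4.71% lower. After median-of-ratios scaling 3 were higher and 2 lower, against 4.23% and 3.83% of all genes. angptl4 (ncbi_110508918), an inhibitor of lipoprotein lipase, was at 10.9, 12.3 and 11.3 FPKM in acute hypoxia, 33.2, 17.2 and 29.0 FPKM in moderate hypoxia and 33.2, 39.0 and 24.9 FPKM in control. It fell by 1.43 ± 0.22 (SE) (adjusted p = 0.00339). MTTP (ncbi_110497503), the lipid transfer protein that loads apolipoprotein B, was at 10.3, 10.7 and 12.6 FPKM in acute hypoxia, 25.0, 22.0 and 22.7 FPKM in moderate hypoxia and 16.4, 16.1 and 15.9 FPKM in control. It fell by 0.52 ± 0.10 in acute hypoxia against control (adjusted p = 0.0113, 0.0576 without control library 1), and its relative change in moderate hypoxia was 0.36 (adjusted p = 0.00414, 0.0712 after median-of-ratios scaling). Another MTTP gene (ncbi_110534276) fell by 0.42 in acute hypoxia against control (limma adjusted p = 0.0175), a call lost in 4 of 14 alternatives. Its relative change in moderate hypoxia against control was -0.03 (limma adjusted p = 0.333). In that comparison 5 of the 27 were called higher and 1 lower, where 24.3% of all genes were higher and 5.02% lower. After median-of-ratios scaling 1 was higher and 7 lower, against 11.3% and 15.3% of all genes. Acute against moderate hypoxia gave 3 higher and 8 lower of the 27, where 4.3% of all genes were higher and 28.1% lower. That scaling changed the split to 10 higher and 3 lower, against 14.7% and 9.77% of all genes.

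Other phospholipases and lysophospholipases had 42 tested genes. Of these, 2 were higher and 1 lower in acute hypoxia against control, where 3.08% of all genes were higher and 4.71% lower. LIPG (ncbi_110536468), an endothelial lipase that cuts phospholipids of high-density lipoprotein, was at 1.07, 0.729 and 1.44 FPKM in acute hypoxia, 1.37, 2.26 and 1.54 FPKM in moderate hypoxia and 2.61, 2.45 and 2.71 FPKM in control and fell by 0.99 ± 0.18 (SE) (adjusted p = 0.00831). All hypoxia libraries were below control. PLD1 (ncbi_110497071) and LCAT (ncbi_110520303) were the genes called higher. PLD1 (limma adjusted p = 0.0342) lost its call in 7 of 13 alternatives. LCAT had means of 1.43 FPKM in acute hypoxia, 0.985 FPKM in moderate hypoxia and 0.787 FPKM in control. It thus passed the filter only through the acute libraries. Its difference from control, a call lost in 9 of 13 alternatives, is therefore a description, although the counts of the list include it. PNPLA8 (ncbi_110500006), a calcium-independent phospholipase A2 whose symbol lies outside the pla2g naming, was at 0.657, 0.861 and 0.79 FPKM in acute hypoxia, 1.64, 2.15 and 1.87 FPKM in moderate hypoxia and 1.11, 1.01 and 0.949 FPKM in control. Its 3 groups did not overlap, with moderate hypoxia highest and acute hypoxia lowest. The relative change was 0.49 for moderate hypoxia against control and -0.70 for acute against moderate hypoxia. With means of 0.769 FPKM in acute hypoxia, 1.89 FPKM in moderate hypoxia and 1.02 FPKM in control, PNPLA8 passed the filter only through the moderate libraries. These changes are therefore a description, although the counts of the list include the gene. The list gave 8 higher and 1 lower in moderate hypoxia against control, where 24.3% of all genes were higher and 5.02% lower, and 4 higher and 9 lower after median-of-ratios scaling, where 11.3% and 15.3% were. In acute against moderate hypoxia it gave 6 higher and 12 lower, where 4.3% of all genes were higher and 28.1% lower, and 15 higher and 2 lower after that scaling, where 14.7% and 9.77% were. The direction of the list's larger count thus depended on the scaling in both comparisons.

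Of the 16 tested genes for the phospholipase A2 receptor, the activator Plaa and the annexins, 0 passed limma's test in acute hypoxia against control under either scaling, with 6 at an unadjusted p under 0.05. In moderate hypoxia against control ANXA1 was called higher and ANXA5 lower, where 24.3% and 5.02% of all genes were. After median-of-ratios scaling 0 were higher and 3 lower there, against 11.3% and 15.3% of all genes. In acute against moderate hypoxia 1 was called higher (anxa11a) and 2 lower (both Plaa), where 4.3% and 28.1% of all genes were. After that scaling 3 were higher and 1 lower, against 14.7% and 9.77%. Plaa (ncbi_110500626) was at 0.782, 0.961 and 0.948 FPKM in acute hypoxia against 1.96, 2.0 and 1.5 FPKM in moderate hypoxia (relative change -0.52, adjusted p = 0.00387). The second, Plaa (ncbi_110531785), had a relative change of -0.36 (adjusted p = 0.00409, 0.0695 after median-of-ratios scaling). The 3 tested genes of platelet-activating factor turnover gave no call by limma in any comparison, with 2 at an unadjusted p under 0.05 in acute hypoxia against control, 0 in moderate hypoxia against control and 1 in acute against moderate hypoxia. Median-of-ratios scaling called 1 of them lower in moderate hypoxia against control, where it called 15.3% of all genes lower. It called 1 higher in acute against moderate hypoxia, where it called 14.7% of all genes higher.

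**Figure D4:**
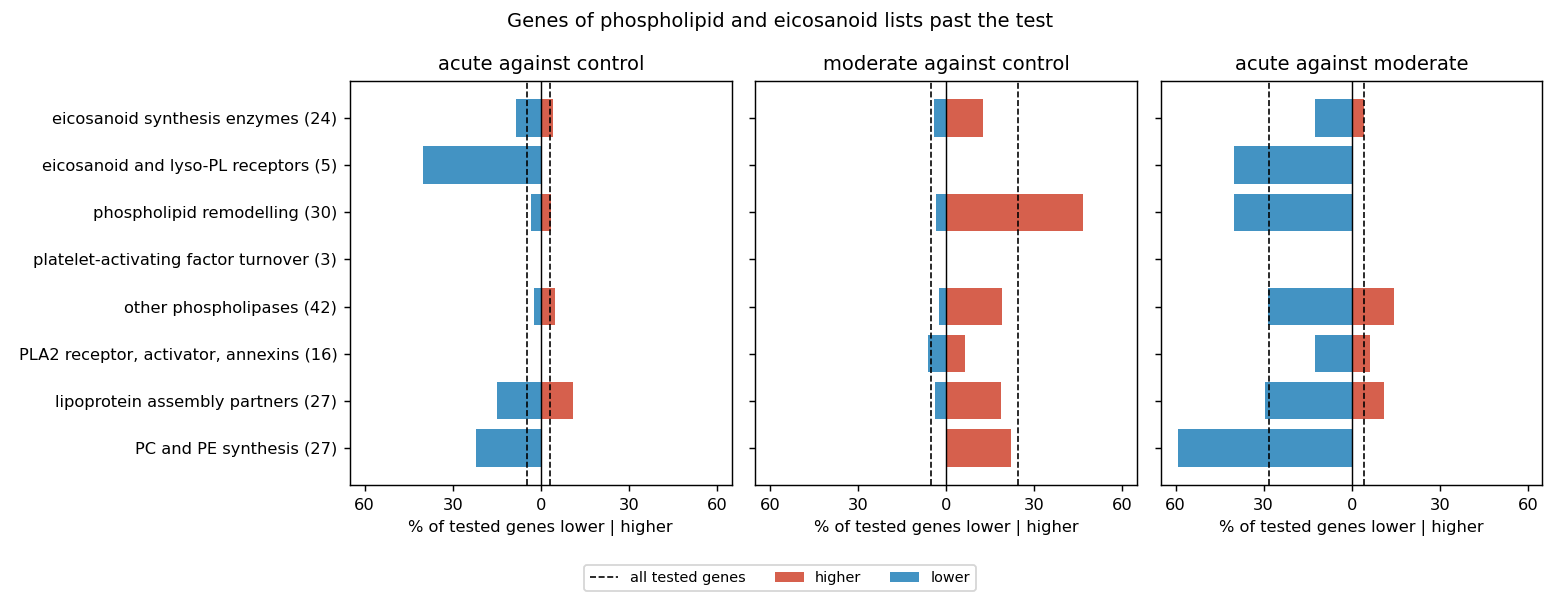
Share of tested genes in each list (number tested in brackets) called lower, to the left, and higher, to the right, in each comparison, as percent; dashed lines are the shares of all 13803 tested genes. In acute hypoxia against control the phosphatidylcholine and phosphatidylethanolamine (PC and PE) list has 6 of 27 lower and none higher; the lyso-PL label stands for lysophospholipids.

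Likeness to pla2g3 was measured as Pearson's r of log2(FPKM + 0.5) over the 9 libraries, as a description with no test; the libraries fall into 3 groups, so r follows mainly the group levels. Of the 11 members with a product name that were compared, pla2g12a was most like it (r = 0.84), followed by PLA2G12B (ncbi_110485919, r = 0.79) and PLA2G12B (ncbi_110493650, r = 0.77), and Pla2g15 was least like it (r = -0.86). Among all tested genes with a product name, the closest were NUFIP1 (r = 0.991), leap-2b (0.99), creb3l3b (0.987), phospho1 (0.986) and urad (0.98). leap-2b (ncbi_100136189), an antimicrobial peptide of liver, was at 3.44, 2.06 and 4.49 FPKM in acute hypoxia, 14.6, 16.2 and 13.8 FPKM in moderate hypoxia and 25.2, 27.8 and 21.0 FPKM in control. creb3l3b (ncbi_110524283), a liver transcription factor, was at 53.6, 51.3 and 51.3 FPKM in acute hypoxia, 102, 102 and 103 FPKM in moderate hypoxia and 116, 131 and 107 FPKM in control. phospho1 (ncbi_110538152), a phosphatase that acts on phosphocholine, was at 5.63, 4.83 and 5.89 FPKM in acute hypoxia, 9.44, 8.72 and 8.22 FPKM in moderate hypoxia and 10.2, 10.5 and 9.87 FPKM in control. All 3 had their acute libraries lowest and control libraries highest, over narrower ranges than pla2g3.

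NUFIP1 (ncbi_118947559) spanned 0.724 to 0.875 FPKM in acute hypoxia, 1.23 to 1.57 FPKM in moderate hypoxia and 1.7 to 1.73 FPKM in control, and urad (ncbi_110535342), an enzyme of uric acid breakdown, spanned 41.0 to 42.1 FPKM in acute hypoxia, 49.6 to 50.6 FPKM in moderate hypoxia and 52.3 to 55.3 FPKM in control. The genes with the lowest r were PNP (-0.986), tpi1b (-0.983) and slc25a48 (-0.983). The glycolytic gene tpi1b (ncbi_110489325) was at 60.8, 62.0 and 67.7 FPKM in acute hypoxia, 32.5, 29.5 and 32.2 FPKM in moderate hypoxia and 23.6, 24.5 and 23.5 FPKM in control. PNP (ncbi_110500424), of purine salvage, was at 6.88, 8.67 and 5.29 FPKM in acute hypoxia, 1.74, 1.77 and 2.14 FPKM in moderate hypoxia and 1.18, 0.672 and 0.983 FPKM in control, the reverse order of pla2g3. slc25a48 (ncbi_110489205), a mitochondrial carrier, was at 3.16 to 4.13 FPKM in acute hypoxia, 0.668 to 0.834 FPKM in moderate hypoxia and 0.321 to 0.819 FPKM in control. With means of 3.55, 0.759 and 0.613 FPKM in the same order, slc25a48 passed the filter only through the acute libraries.

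**Figure D5:**
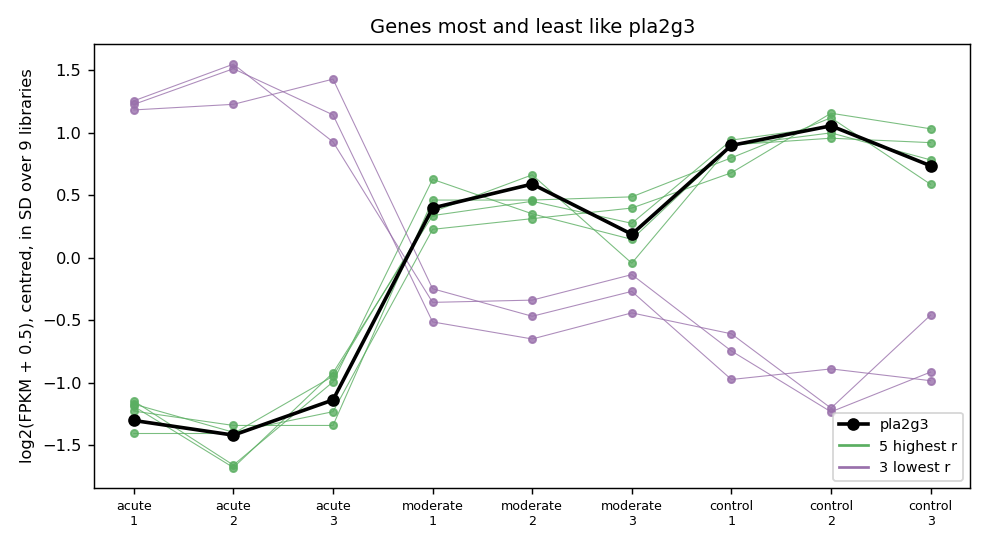
log2(FPKM + 0.5) of pla2g3 (black), of the 5 genes with the highest r (green) and the 3 with the lowest r (purple), each centred on its mean and divided by its SD over the 9 libraries. The order of libraries within a group carries no meaning; the green genes are lowest in acute hypoxia and the purple genes highest there.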

How the data were processed

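Liver RNA of rainbow trout was sequenced as 9 libraries, grouped by the treatment label. The authors deposited FPKM for each gene and library, per the file headers. They also deposited log2 ratios, p-values and FDR values of each comparison, per the file headers. Bowtie2 2.2.8 and TopHat2 2.1.1 are named in the submitters' processing notes, while genome build, counter and the authors' test are not given in the sources used here. Deposited were 3 tables in 1 file, of 42127, 42038 and 42128 genes. Each holds 1 pair of groups (moderate and control, acute and control, acute and moderate, in file order). Moderate values in both of its tables are identical (largest difference 0), so control and moderate libraries were joined to the acute libraries of the last over 42127 genes. The table of acute hypoxia with control comes from another quantification, since of 41895 shared gene identifiers 13566 have identical control values, and served as an alternative.

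Genes whose mean over all libraries reached 1 FPKM were tested on log2(FPKM + 0.5) with limma 3.58.1 in R 4.3.3 (mean trend, 3 groups in 1 fit, no covariate), with Benjamini-Hochberg adjustment over all 13803. The added 0.5 understates changes of low genes. The members and lists were chosen with earlier results of these data known. Named genes were the members, up to 3 genes per list and comparison with the smallest p among those called, and the 5 genes most and 3 least like pla2g3; the text gives part of those from the lists. Marker lists of 9 cell types were summed per library, and all are given with the results. In simulated data with 100 genes changed by 1 and 100 by 0.5 in acute hypoxia against control, the fit over 13803 genes recovered 82 of 100 and 19 of 100, with 1 false call among 102. Of the 30 members, 29 matched a RefSeq gene identifier. Alternatives were pseudocounts of 0.1 and 1, no filter, a filter of 5 FPKM, median-of-ratios scaling, the compared groups alone, a replicate block, the joint table of acute hypoxia and control, and each library left out in turn.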

Additional observations from a re-analysis of the deposited data

How the results depend on the processing

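Read totals are unknown, so counting error cannot be separated from other spread. With 3 libraries a group, changes of 0.5 on the log2 scale were seldom recovered in data simulated for acute hypoxia against control. There 100 genes were changed by 1 and 100 by 0.5, a smaller share than was called in these data. Recovery after adjustment depends on that share, so the rate need not hold for the fits given here. Over all genes the count for acute hypoxia against control was 1075, and 700 without a filter, 571 with the filter at 5 FPKM, and 462 to 883 with a library left out (462 without control library 1, 662 without control library 2, 588 without acute library 2). For moderate hypoxia against control it was 4041, with 1257 at the 5 FPKM filter and 2623 to 3510 with a library left out (2623 without control library 1). For acute against moderate hypoxia it was 4477, with 1443 at the 5 FPKM filter and 3004 to 3928 with a library left out. Fewer genes entered the test at the 5 FPKM filter, so its counts are of a smaller set. After median-of-ratios scaling there were 581 higher and 527 lower, 1547 higher and 2105 lower, and 2015 higher and 1343 lower in these comparisons, where deposited scaling gave 425 and 650, 3348 and 693, and 593 and 3884. Same-numbered libraries of different groups did not deviate together over genes (r from -0.131 to 0.0806), so the numbers were not taken as pairs; with a replicate block 794 genes were called in acute and 3557 in moderate hypoxia against control.

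Of the 12 phospholipase A2 genes, 3 were called in acute hypoxia against control and 1 to 2 with a library left out, 1 without control library 1 or 2 or acute library 1 or 2. In moderate hypoxia against control 2 were called, 1 without a filter, with the replicate block or with the 2 groups alone, and 5 after median-of-ratios scaling. With a library left out the count was 0 to 2 (0 without control library 1, and 1 without control library 3, moderate library 1 or moderate library 3). The filter at 5 FPKM also left 1, because pla2g7, with a mean of 4.4 FPKM, was not tested there. In acute against moderate hypoxia 2 were called, 1 without a filter, and 1 to 3 with a library left out (1 without moderate library 1, moderate library 3 or acute library 2). The cause of the other shifts was not tested.

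Reversed signs were found for 25 of 505 recomputed values of members and 1 of 1120 of other named genes. Median-of-ratios scaling turned moderate against control to -0.22 for PLA2G12B (ncbi_110493650), -0.13 for PLA2G12B (ncbi_110485919), -0.12 for PLA2G12A, -0.02 for PLA2G10 (ncbi_118938417) and -0.11 for PLA2G7. It turned acute against moderate to 0.04 for PLA2G12B (ncbi_110493650), 0.27 for pla2g12b, 0.25 for pla2g7, 0.21 for PLA2G7 and 0.04 for urad. With a library left out, signs varied for PLA2G10 (ncbi_118938417) in acute against control (-0.06 to 0.69), moderate against control (-0.15 to 0.60) and acute against moderate (-0.07 to 0.37). They varied for PLA2G7 in the same comparisons (-0.01 to 0.10, -0.05 to 0.22 and -0.18 to 0.09), for PLA2G12B (ncbi_110493650) in moderate against control (-0.01 to 0.07), and in acute against moderate for pla2g12b (-0.09 to 0.04) and PLA2G10 (ncbi_110515973, -0.15 to 0.35). Of the values turned by a left-out library, none had passed the test. For pla2g3 every alternative kept the sign.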
